A study of Sus scrofa with 20 samples.

Results

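Endoplasmic reticulum (ER) chaperones and genes of the unfolded protein response were examined in the amygdala of German Landrace pigs. The 10 genes asked for were HSPA5, HSP90B1, DNAJB9, PDIA3, PDIA4, CALR, CANX, XBP1, ATF4 and DDIT3, and every probe set that the platform annotation assigned to one of these symbols was taken. This gave 7 of the 10 genes and 8 of the 47845 probe sets in the table, with 2 probe sets for DDIT3 and 1 for each of the other 6 genes. HSP90B1, CALR and CANX were under none of the 26426 probe sets with a symbol, nor under a RefSeq synonym, and were not analysed here. A further 21419 probe sets had no symbol.

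Proteins that are secreted or inserted into membranes fold in the ER, where chaperones hold unfolded chains, disulfide isomerases pair their cysteines and lectin chaperones retain immature glycoproteins. When unfolded protein accumulates there, the sensors IRE1, PERK and ATF6 start the unfolded protein response. IRE1 splices the mRNA of the transcription factor XBP1, PERK phosphorylates eIF2alpha and thereby favors translation of ATF4, and ATF6 is cut by proteases in the Golgi and moves to the nucleus. Together these factors raise the transcription of chaperones, and prolonged signaling induces the transcription factor DDIT3 (CHOP). Neurons and astrocytes make large amounts of membrane and secreted protein, and the chaperones are expressed in them without stress. The splicing of XBP1, the translation of ATF4 and the cleavage of ATF6 are not read by the mRNA level of a whole gene.

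The samples comprised 10 high-reactive (HR) and 10 low-reactive (LR) animals, with 1 Affymetrix Snowball array for each. All were German Landrace pigs, slaughtered some months after birth according to the paper. None received a treatment according to the labels. Animals were chosen for extreme early-life behavior when briefly held on the back and for their haplotype at a locus linked to that behavior, so behavior and haplotype cannot be told apart in this design. Values are log2 expression, differences are HR minus LR, and p-values measure the spread between animals. In whole tissue, fewer cells of a type and less RNA per cell cannot be told apart.

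Array medians lay between 5.14 and 5.22. The mean of the 69 antigenomic probe sets, which match no known sequence and are called array background below, averaged 4.21 ± 0.13 in HR and 4.08 ± 0.15 in LR (SD, n = 10 each). LR replicate 3 had the lowest background of all arrays, at 3.71, and its correlation to the rest had a median of 0.876, against 0.958 for the next lowest array. The first principal component of the tested probe sets held 49.0% of the variance and followed the background at r = 0.894 over 20 arrays. Summed markers of amygdala principal neurons (7 genes, 6 of them tested) ranged from 12.1 to 12.5 in HR and from 11.8 to 12.4 in LR, and summed choroid plexus markers, which mark another tissue, ranged from 8.64 to 13.5 in HR and from 8.74 to 13.0 in LR. Of 10 HR animals, 9 had an identification number above every LR animal. The fits without LR replicate 3 and with the array background as a covariate are given beside the main fit.

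The main comparison asked whether expression of the ER genes differed between HR and LR. HSPA5, DNAJB9 and PDIA3 averaged lower in HR, PDIA4 averaged higher in HR, and XBP1, ATF4 and DDIT3 differed by 0.13 or less. None of the 8 probe sets had an adjusted p under 0.05 in limma, and across the array 2 of 23860 tested probe sets did (0.00838%). At an unadjusted p under 0.05, 3 of the 8 probe sets were lower in HR and 1 was higher. Among all tested probe sets 3344 were lower in HR at that level (14.0%) and 2939 were higher (12.3%). All 8 probe sets passed the filter on low values, and their lowest values exceeded the background of the same array by 2.69 (DDIT3) to 5.21 (PDIA3).

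**Figure D1:**
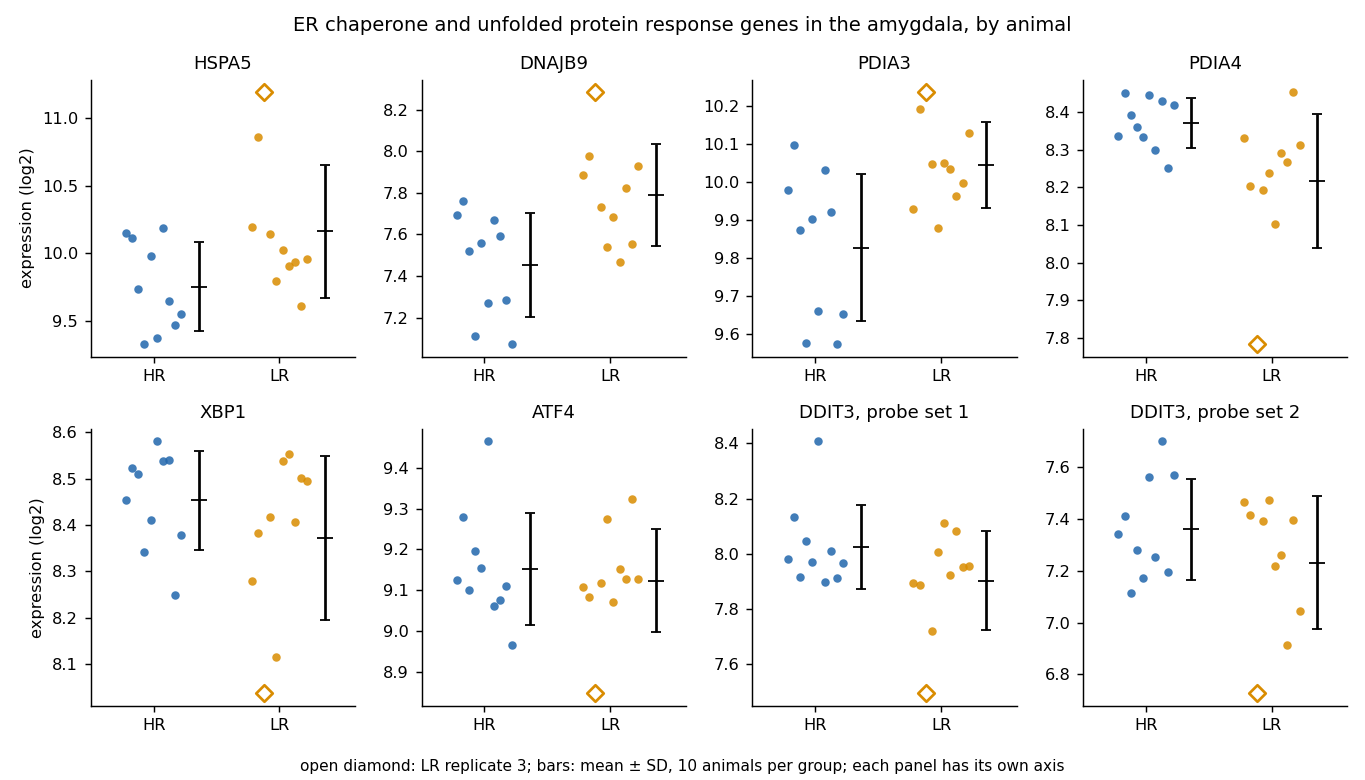
Log2 expression of each probe set (vertical axis) by group, with 1 point per animal, bars for mean ± SD (10 animals per group) and an open diamond for LR replicate 3. The groups overlap in every panel, and LR replicate 3 is the highest of 20 arrays for HSPA5, DNAJB9 and PDIA3 and the lowest for the other 5 probe sets.

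HSPA5 (BiP) is the HSP70 chaperone of the ER lumen and binds the 3 sensors when no unfolded protein competes for it. Its probe set had a lowest, median and highest value of 9.33, 9.69 and 10.19 in HR and of 9.61, 9.99 and 11.19 in LR. In HR 4 arrays lay below the lowest LR array, and 3 LR arrays lay above the highest HR array, with the groups overlapping in between. The means were 9.75 ± 0.33 in HR and 10.16 ± 0.49 in LR (SD, n = 10 each). The difference was -0.41 ± 0.17 (SE), with a 95% confidence interval of -0.77 to -0.05, an unadjusted p of 0.0261 and an adjusted p of 0.168 (limma). HSPA5 had the largest range over arrays of the 8 probe sets, 1.87, and 1.54 without LR replicate 3.

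DNAJB9 (ERdj4) is an HSP40 co-chaperone of HSPA5 and a target of spliced XBP1. Its lowest, median and highest values were 7.07, 7.54 and 7.76 in HR and 7.47, 7.78 and 8.28 in LR. Each of the 10 HR arrays lay below the LR median, 4 of them below the lowest LR array, and 5 LR arrays lay above the highest HR array. The means were 7.45 ± 0.25 in HR and 7.79 ± 0.25 in LR (SD, n = 10 each). The difference was -0.33 ± 0.11 (SE; 95% confidence interval -0.56 to -0.11), the one with the smallest unadjusted p among the 8 probe sets (0.00483, adjusted p = 0.157 in limma).

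PDIA3 (ERp57) is the disulfide isomerase that works with calnexin and calreticulin on glycoproteins. Its values were 9.57, 9.89 and 10.10 in HR and 9.88, 10.04 and 10.24 in LR (lowest, median and highest). In HR the arrays formed a lower set of 4 and an upper set of 6 that lay within or near the LR range, and 5 HR arrays were below the lowest LR array. The means were 9.83 ± 0.19 in HR and 10.05 ± 0.11 in LR (SD, n = 10 each), a difference of -0.22 ± 0.08 (SE; 95% confidence interval -0.38 to -0.06, p = 0.00857, adjusted p = 0.157, limma). The 4 lowest of all 20 arrays were the same for HSPA5, DNAJB9 and PDIA3, namely HR replicates 4, 6, 9 and 10, and LR replicates 3 and 2 were the 2 highest for each. Those 4 HR arrays also had the 4 highest background means of the 20 arrays, between 4.31 and 4.37, and LR replicates 3 and 2 had 3.71 and 3.99.

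PDIA4 (ERp72), another disulfide isomerase, which in mammals is found in complexes with HSPA5, stood the other way. Its values were 8.25, 8.38 and 8.45 in HR and 7.78, 8.25 and 8.45 in LR (lowest, median and highest). All 10 HR arrays were above the LR median, 5 LR arrays were below the lowest HR array, and the highest array of all was LR replicate 9. The HR mean was 8.37 ± 0.07 and the LR mean 8.22 ± 0.18 (SD, n = 10 each), and the difference was 0.15 ± 0.07 (SE; 95% confidence interval 0.01 to 0.30, p = 0.0336, adjusted p = 0.174, limma).

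The transcription factors differed less. XBP1 values were 8.25, 8.48 and 8.58 in HR and 8.04, 8.41 and 8.55 in LR (lowest, median and highest), with a difference of 0.08 ± 0.07 (SE; 95% confidence interval -0.07 to 0.23, adjusted p = 0.422, limma). ATF4, the translationally controlled activator downstream of PERK, had 8.97, 9.12 and 9.47 in HR and 8.85, 9.12 and 9.32 in LR, a difference of 0.03 ± 0.07 (SE; -0.11 to 0.17, adjusted p = 0.756, limma). Its direction turned in 6 of the other settings, among them the fit with array background, at -0.02. These intervals run from -0.07 to 0.23 for XBP1 and from -0.11 to 0.17 for ATF4. Differences within them were not excluded with 10 arrays per group.

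DDIT3, which ATF4 induces when stress persists, was read by 2 probe sets. The first had values of 7.90, 7.98 and 8.41 in HR and 7.50, 7.94 and 8.11 in LR, and the second 7.11, 7.31 and 7.70 in HR and 6.73, 7.33 and 7.47 in LR (lowest, median and highest). The differences were 0.12 ± 0.08 and 0.13 ± 0.10 (SE), with adjusted p of 0.285 and 0.358 (limma). The second probe set was higher in HR in its mean and slightly lower in HR in its median. Across the 20 arrays the 2 probe sets followed each other at Pearson r = 0.455 (permutation p = 0.0458) and Spearman rho = 0.223 (permutation p = 0.343), and at r = 0.141 without LR replicate 3. The first, with the higher mean, stands for DDIT3 below. The XBP1 and DDIT3 probe sets carry the suffix that the manufacturer uses for probes shared by several transcripts. Of the genes named by smallest p in the other ER lists below, DNAJC3, SEC63, MLEC and SEC61A1 have probe sets with it too.

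Leaving out LR replicate 3 moved HSPA5 to -0.30 ± 0.14 (SE, unadjusted p = 0.0525), PDIA4 to 0.11 ± 0.05 (p = 0.0502), DNAJB9 to -0.28 ± 0.10 (p = 0.00903) and PDIA3 to -0.20 ± 0.07 (p = 0.0141, limma). The 3 genes that were lower in HR and PDIA4 kept their directions. ATF4 came to -0.0006 without that array. With the array background as a covariate, the difference was -0.08 ± 0.11 for HSPA5 (p = 0.485), -0.18 ± 0.09 for DNAJB9 (p = 0.0678), -0.11 ± 0.06 for PDIA3 (p = 0.103) and 0.07 ± 0.06 for PDIA4 (p = 0.260, SE and unadjusted p, limma). All 8 probe sets then had an unadjusted p above 0.05 and none had an adjusted p under 0.05. This fit left 19.1% of the HSPA5 difference and from 46.6% to 52.3% of those of PDIA4, PDIA3 and DNAJB9.

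**Figure D2:**
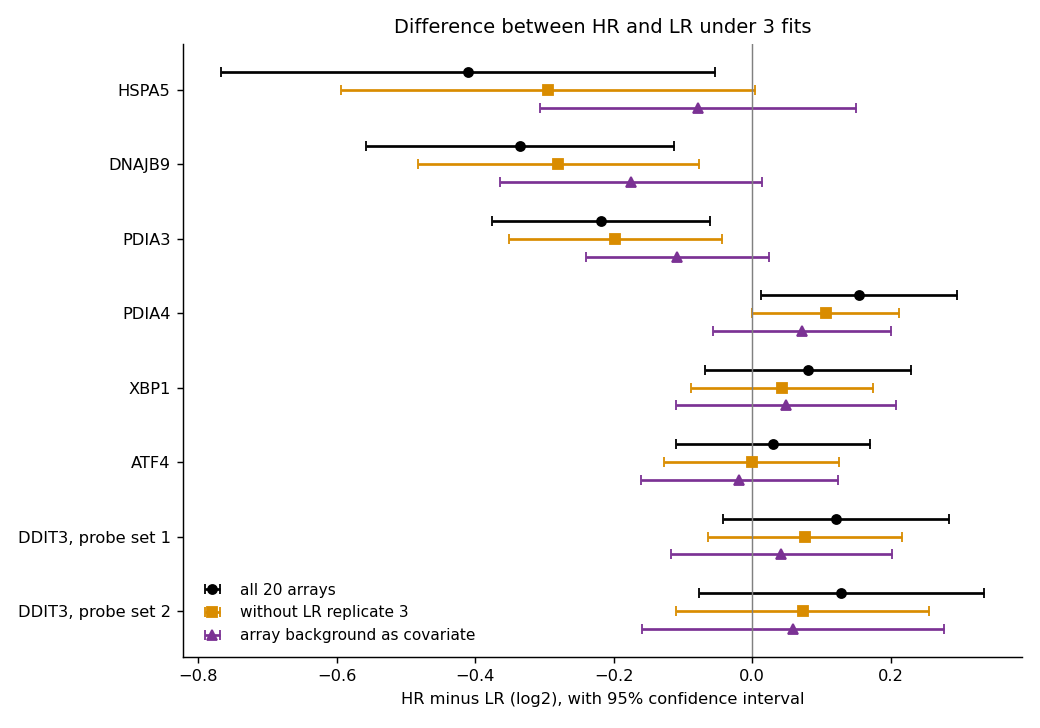
Difference between HR and LR on the log2 scale (horizontal axis, with 95% confidence intervals) for each probe set, under the fit of all 20 arrays, without LR replicate 3, and with the array background as a covariate. The HSPA5 interval spans -0.77 to -0.05 with all arrays and includes 0 in both other fits.

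The levels were then set against the array background over the 20 arrays, as 7 relations. HSPA5 was lower where the background was higher (Pearson r = -0.874, permutation p = 1e-05, adjusted p = 3.5e-05; Spearman rho = -0.746, p = 0.00026, adjusted p = 0.00126). This held within HR (r = -0.921, adjusted permutation p = 0.00315) and within LR (r = -0.805, adjusted permutation p = 0.0308), and r stayed below 0 without the 2 arrays farthest from the median background (r = -0.743). For PDIA3 the relation was also negative (r = -0.799, permutation p = 1e-05, adjusted p = 3.5e-05; rho = -0.740, p = 0.00036, adjusted p = 0.00126), with r = -0.857 within HR (adjusted permutation p = 0.00684), -0.679 within LR (adjusted permutation p = 0.0509) and -0.754 without the 2 arrays. For DNAJB9 r was -0.758 (permutation p = 0.00018, adjusted p = 0.00042; rho = -0.567, p = 0.0103, adjusted p = 0.0240), with r = -0.873 within HR (adjusted permutation p = 0.00602), -0.528 within LR (adjusted permutation p = 0.120) and -0.561 without the 2 arrays. Among these genes, therefore, HSPA5 passed 0.05 within LR and PDIA3 and DNAJB9 did not. The p of 1e-05 is the smallest that 100000 permutations can give.

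PDIA4 ran the other way, at r = 0.729 (permutation p = 0.00153, adjusted p = 0.00268; rho = 0.510, p = 0.0232, adjusted p = 0.0405). Its r was 0.115 within HR (adjusted permutation p = 0.872) and 0.879 within LR (adjusted permutation p = 0.0308), where LR replicate 3 was included. Without the 2 arrays it was 0.442 (adjusted permutation p = 0.116). The relation of PDIA4 therefore passed 0.05 within LR, and did not pass it within HR or without the 2 arrays. DDIT3 gave r = 0.582 (permutation p = 0.0128, adjusted p = 0.0179; rho = 0.275, p = 0.237, adjusted p = 0.331). Without the 2 arrays r was 0.256 (adjusted permutation p = 0.440), so DDIT3 did not pass 0.05 without them either. ATF4 (r = 0.401, permutation p = 0.0806, adjusted p = 0.0940; rho = 0.128, p = 0.592, adjusted p = 0.690) and XBP1 (r = 0.321, permutation p = 0.167, adjusted p = 0.167; rho = -0.003, p = 0.992, adjusted p = 0.992) gave r = 0.041 and -0.066 without the 2 arrays.

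**Figure D3:**
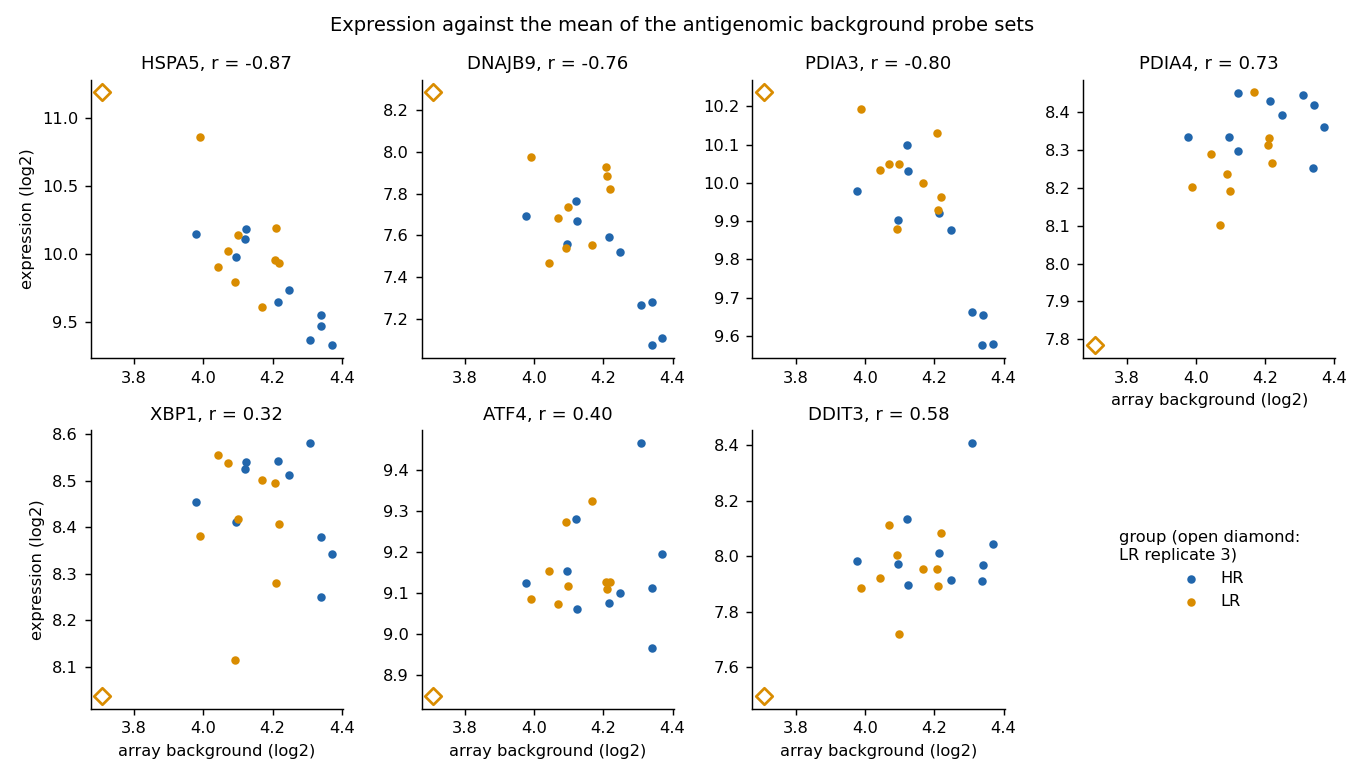
Log2 expression of the 7 genes (vertical axes) against the mean of the antigenomic probe sets of the same array (horizontal axes, log2), with HR and LR in 2 colors and LR replicate 3 as an open diamond. HSPA5, DNAJB9 and PDIA3 have r below 0 in both groups, with an adjusted permutation p above 0.05 within LR for DNAJB9 and PDIA3, while PDIA4 and DDIT3 are lowest in the low-background array LR replicate 3.

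Among the 21 pairs of the 7 genes, 13 had an adjusted permutation p under 0.05 for Pearson r, 8 of them positive and 5 negative. HSPA5, DNAJB9 and PDIA3 moved together from array to array. PDIA3 and DNAJB9 gave r = 0.890 (permutation p = 1e-05, adjusted p = 7e-05; rho = 0.812, p = 6e-05, adjusted p = 0.00063) and r = 0.867 without the 2 arrays farthest from the median of PDIA3. HSPA5 and DNAJB9 gave r = 0.877 (permutation p = 1e-05, adjusted p = 7e-05; rho = 0.851, p = 1e-05, adjusted p = 0.00021) and 0.829 without 2 arrays. HSPA5 and PDIA3 gave r = 0.819 (permutation p = 1e-05, adjusted p = 7e-05; rho = 0.767, p = 0.00012, adjusted p = 0.00084) and 0.815 without 2 arrays. Within HR these 3 pairs had r of 0.950, 0.874 and 0.914, and within LR of 0.701, 0.853 and 0.773, in the same order. Without LR replicate 3 they had r of 0.881, 0.825 and 0.813, again in that order. With the array background regressed out of both genes, r was 0.725 for PDIA3 and DNAJB9, 0.676 for HSPA5 and DNAJB9 and 0.414 for HSPA5 and PDIA3.

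The other 10 pairs with an adjusted p under 0.05 for Pearson r all had r closer to 0 without LR replicate 3. The 4 of them with the largest r in size were as follows. ATF4 and DDIT3, an activator and its target, had r = 0.744 (permutation p = 0.00079, adjusted p = 0.00415; rho = 0.505, p = 0.0244, adjusted p = 0.102). For that pair r was 0.623 without LR replicate 3, 0.685 with the background removed and 0.259 without the 2 arrays farthest from the ATF4 median, so it rested on those arrays. Within HR it was 0.901 and within LR 0.635. HSPA5 and PDIA4 had r = -0.726 (permutation p = 0.00105, adjusted p = 0.00441; rho = -0.508, p = 0.0235, adjusted p = 0.102), -0.477 without LR replicate 3, -0.395 without 2 arrays and -0.157 within HR. PDIA4 and DDIT3 had r = 0.664 (permutation p = 0.00559, adjusted p = 0.0147; rho = 0.454, p = 0.0467, adjusted p = 0.133), 0.348 without LR replicate 3 and 0.568 without 2 arrays. HSPA5 and DDIT3 had r = -0.648 (permutation p = 0.00387, adjusted p = 0.0135; rho = -0.486, p = 0.0312, adjusted p = 0.109), -0.412 without LR replicate 3 and -0.396 without 2 arrays. None of the pairs other than the 3 among HSPA5, DNAJB9 and PDIA3 passed 0.05 by the adjusted Spearman test.

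**Figure D4:**
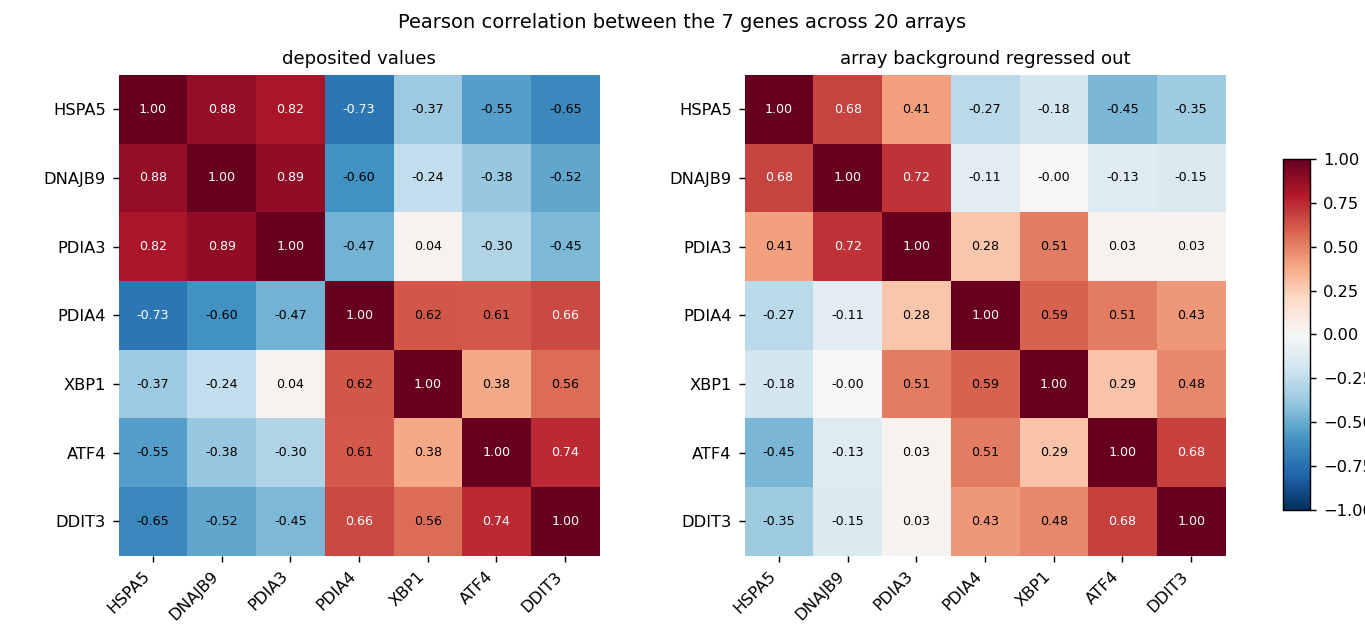
Pearson r between the 7 genes across 20 arrays (both axes list the genes, color runs from -1 to 1), with deposited values on the left and after regressing each gene on the array background on the right. The block of HSPA5, PDIA3 and DNAJB9 reads 0.82 to 0.89 on the left and 0.41 to 0.72 on the right.

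The genes most like each of the 7 across the 20 arrays were named from the 10255 tested genes, by the highest Pearson r, as a description. They were DLG2 (0.988), CNOT1 (0.987) and IARS (0.979) for HSPA5, RAB2A (0.972), EGLN1 (0.961) and HIPK1 (0.953) for PDIA3, and PRPF3 (0.956), TCEA1 (0.956) and UGT8 (0.943) for DNAJB9. These encode, among others, a postsynaptic scaffold (DLG2), the scaffold of the deadenylase complex (CNOT1) and a GTPase of ER to Golgi transport (RAB2A). All 9 genes also had r with the array background between -0.766 and -0.878. PDIA4 was followed most closely by EDC4 (0.932), UBTF (0.924) and RBM22 (0.924), DDIT3 by RGMA (0.899), AK1 (0.892) and TAF6 (0.878), ATF4 by PPM1G (0.885), DAD1 (0.877) and SLC2A3 (0.860), and XBP1 by PPP1R8 (0.853), CSAD (0.839) and UBAP2L (0.836). Only DAD1, a subunit of the oligosaccharyltransferase that attaches glycans in the ER, belonged to the other ER lists. The ER gene nearest to HSPA5 was the sensor ATF6 (r = 0.970), at rank 20 of 10254 genes, followed by MBTPS2 (0.963, rank 45) and EIF2AK3 (0.960, rank 56). For DNAJB9 it was DNAJC3 (0.916, rank 38), an ER co-chaperone that binds HSPA5, and for PDIA3 it was UBE2J1 (0.942, rank 10), a ubiquitin-conjugating enzyme of ER-associated degradation.

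The remaining ER machinery was described from lists of 124 other genes, of which 103 were on the array and 98 were tested. Of the 98, 15 were lower and 16 higher in HR at an unadjusted p under 0.05, against 15.4% lower and 14.2% higher among all 10255 tested genes. None had an adjusted p under 0.05 in limma, and the smallest was 0.157. The median difference was 0.02 over the 98 genes and 0.05 over all genes. The 15.4% and 14.2% of all tested genes are also the shares to set beside the counts of each list below. Without LR replicate 3 the counts were 8 lower and 10 higher, and with array background as a covariate 1 lower and 4 higher. Of all 23860 tested probe sets, 18.5% passed that level in either direction without LR replicate 3. With the covariate 4.27% did.

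Among co-chaperones and folding factors (18 tested), 1 was lower and 6 were higher in HR at an unadjusted p under 0.05, and the median was 0.12. That median came to 0.07 without LR replicate 3 and to 0.004 with array background as a covariate. In the main fit there was 1 lower gene. This was DNAJC3, at -0.53 ± 0.19 (SE, p = 0.0104), with a median of 7.29 in HR and 7.55 in LR. HYOU1, a large HSP70-like nucleotide exchange factor for HSPA5, was at 0.25 ± 0.08 (p = 0.00384), with values of 9.73, 9.79 and 9.95 in HR and 9.03, 9.55 and 9.81 in LR (lowest, median and highest). CRELD2, a secreted ER stress target, was at 0.28 ± 0.09 (p = 0.00408), with 5.43, 5.72 and 6.02 in HR and 5.17, 5.41 and 5.87 in LR. It was dim and came within 1.05 of the array background at its lowest. All 10 HR arrays exceeded the LR median for HYOU1 and CRELD2. SEC63, the translocon-bound partner of HSPA5, was at -0.32 ± 0.16 (p = 0.0663). With array background as a covariate, HYOU1 was at 0.17 (p = 0.0348) and CRELD2 at 0.22 (p = 0.0253), whereas DNAJC3 was at -0.20 (p = 0.177) and SEC63 at -0.04 (p = 0.776). Without LR replicate 3, DNAJC3 was at -0.40, SEC63 at -0.16, HYOU1 at 0.19 and CRELD2 at 0.26, and SEC63 again had an unadjusted p above 0.05.

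Disulfide isomerases and oxidases (14 tested) had 4 lower and 1 higher, with a median of -0.02. ERO1L, the oxidase that recharges disulfide isomerases, was at -0.55 ± 0.21 (SE, p = 0.0170), and TMX1, a membrane-bound isomerase, at -0.52 ± 0.18 (p = 0.00712). TMX1 was dim, with a lowest HR value of 4.80, and came within 0.46 of the array background at its lowest. On the other side, TXNDC11 was at 0.14 ± 0.06 (p = 0.0405) and PDIA5 at 0.14 ± 0.09 (p = 0.110). With array background as a covariate, ERO1L was at -0.24 (p = 0.217), TMX1 at -0.24 (p = 0.112), TXNDC11 at 0.09 (p = 0.192) and PDIA5 at 0.13 (p = 0.177). Without LR replicate 3, ERO1L was at -0.41 (p = 0.0334), TMX1 at -0.39 (p = 0.00890), TXNDC11 at 0.10 (p = 0.0680) and PDIA5 at 0.11 (p = 0.191).

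In glycoprotein quality control (10 tested), 1 was lower and 2 were higher. LMAN1, a cargo receptor for glycoproteins, was at -0.55 ± 0.22 (SE, p = 0.0228) and all 10 HR arrays were below the LR median, while STT3A, a catalytic subunit of the oligosaccharyltransferase, was at -0.23 ± 0.11 (p = 0.0535). GANAB, which trims glucose from glycans, was at 0.23 ± 0.10 (p = 0.0231), and MLEC, which binds glucosylated glycans, at 0.23 ± 0.10 (p = 0.0268). With array background as a covariate, LMAN1 was at -0.21 (p = 0.288), STT3A at -0.05 (p = 0.595), GANAB at 0.13 (p = 0.178) and MLEC at 0.10 (p = 0.252). Without LR replicate 3, LMAN1 was at -0.35 (p = 0.0242), STT3A at -0.18 (p = 0.105), GANAB at 0.16 (p = 0.0372) and MLEC at 0.19 (p = 0.0490).

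The sensors and their activating proteases (5 tested) did not share a direction. EIF2AK3 (PERK) was at -0.30 ± 0.15 (SE, p = 0.0525) and ATF6 at -0.39 (p = 0.0614), whereas ERN1 (IRE1) was at 0.15 ± 0.08 (p = 0.0775). The proteases that cut ATF6 were on opposite sides, with MBTPS2 at -0.32 ± 0.14 (p = 0.0368) and MBTPS1 at 0.16 ± 0.07 (p = 0.0369). With array background as a covariate these came to -0.04 for EIF2AK3, 0.02 for ATF6, 0.07 for ERN1, -0.04 for MBTPS2 and 0.07 for MBTPS1, each with an unadjusted p above 0.05. Without LR replicate 3 they came to -0.21, -0.25, 0.10, -0.22 and 0.11 in the same order, also with each unadjusted p above 0.05.

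Targets and regulators of PERK and the integrated stress response (12 tested) had 3 lower and 2 higher. CHAC1, a glutathione-degrading enzyme induced through ATF4, was at 0.37 ± 0.12 (SE, p = 0.00500), with 7.76, 8.02 and 8.28 in HR and 7.06, 7.61 and 8.20 in LR (lowest, median and highest). SESN2, a stress-induced inhibitor of mTORC1, was at 0.27 ± 0.09 (p = 0.00937). PPP1R15B, the constitutive subunit of the eIF2alpha phosphatase, was at -0.25 ± 0.08 (p = 0.00509), and CEBPG, a dimerization partner of ATF4, at -0.28 ± 0.09 (p = 0.00573). With array background as a covariate CHAC1 was at 0.27 (p = 0.0383) and PPP1R15B at -0.16 (p = 0.0474), whereas SESN2 was at 0.14 (p = 0.113) and CEBPG at -0.13 (p = 0.0819). Without LR replicate 3, CHAC1 was at 0.30, SESN2 at 0.24, PPP1R15B at -0.25 and CEBPG at -0.21, each with an unadjusted p under 0.05. ASNS, ATF3 and PPP1R15A, other genes that ATF4 can induce, were at 0.08 (p = 0.293), 0.14 (p = 0.124) and 0.04 (p = 0.577), and were named after their values were seen. They do not stand for the list, in which 5 of the 12 genes averaged lower and 7 higher in HR. Differences ran from -0.34 to 0.37, and the gene at -0.34 is not among those named.

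ER-associated degradation (18 tested) had 3 lower and 3 higher. RNF139, a ubiquitin ligase, was at -0.33 ± 0.14 (SE, p = 0.0306) and ERLEC1, a lectin, at -0.35 ± 0.15 (p = 0.0317). DERL2, a channel component, was at 0.21 ± 0.07 (p = 0.00620), and AUP1 at 0.23 ± 0.10 (p = 0.0352). DERL2 had 3 tested probe sets, and besides the brightest, used here, only 1 shared its direction. The brightest came within 1.25 of the array background at its lowest. The background covariate put DERL2 at 0.16 (p = 0.0355), RNF139 at -0.08 (p = 0.468), ERLEC1 at -0.09 (p = 0.441) and AUP1 at 0.06 (p = 0.475). When LR replicate 3 was left out, DERL2 was at 0.19 (p = 0.00932), RNF139 at -0.22 (p = 0.0464), ERLEC1 at -0.24 (p = 0.0613) and AUP1 at 0.15 (p = 0.0621).

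Of the translocon and ER export genes (21 tested), 2 were lower and 1 was higher, with SPCS3 (-0.25 ± 0.11, p = 0.0288) and SPCS2 (-0.18 ± 0.08, p = 0.0413) of the signal peptidase on one side, and SSR4 (0.26 ± 0.11, p = 0.0300) and SEC61A1 (0.16 ± 0.09, p = 0.0709) on the other. Under the background covariate, SPCS3 was at -0.08 (p = 0.368), SPCS2 at -0.05 (p = 0.439), SSR4 at 0.04 (p = 0.555) and SEC61A1 at 0.04 (p = 0.601). Leaving out LR replicate 3 put SPCS3 at -0.18 (p = 0.0534), SPCS2 at -0.15 (p = 0.0710), SSR4 at 0.17 (p = 0.0477) and SEC61A1 at 0.10 (p = 0.134).

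Cytosolic heat shock proteins, taken for comparison (13 tested), had a median of -0.20. It came to -0.12 without LR replicate 3 and to -0.003 with array background as a covariate. At an unadjusted p under 0.05 in the main fit, 3 were lower and 2 were higher. Of the 5, HSP90AA1 was at -0.40 (p = 0.0152), DNAJA1 at -0.36 (p = 0.0317) and HSPA8 at -0.32 (p = 0.0224), and the small heat shock proteins HSPB8 at 0.27 (p = 0.00867) and HSPB1 at 0.24 (p = 0.0154). Under the background covariate they were at -0.12, -0.09, -0.07, 0.17 and 0.11 in the same order, each with an unadjusted p above 0.05, and without LR replicate 3 at -0.28, -0.23, -0.26, 0.22 and 0.19, each with an unadjusted p under 0.05.

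**Figure D5:**
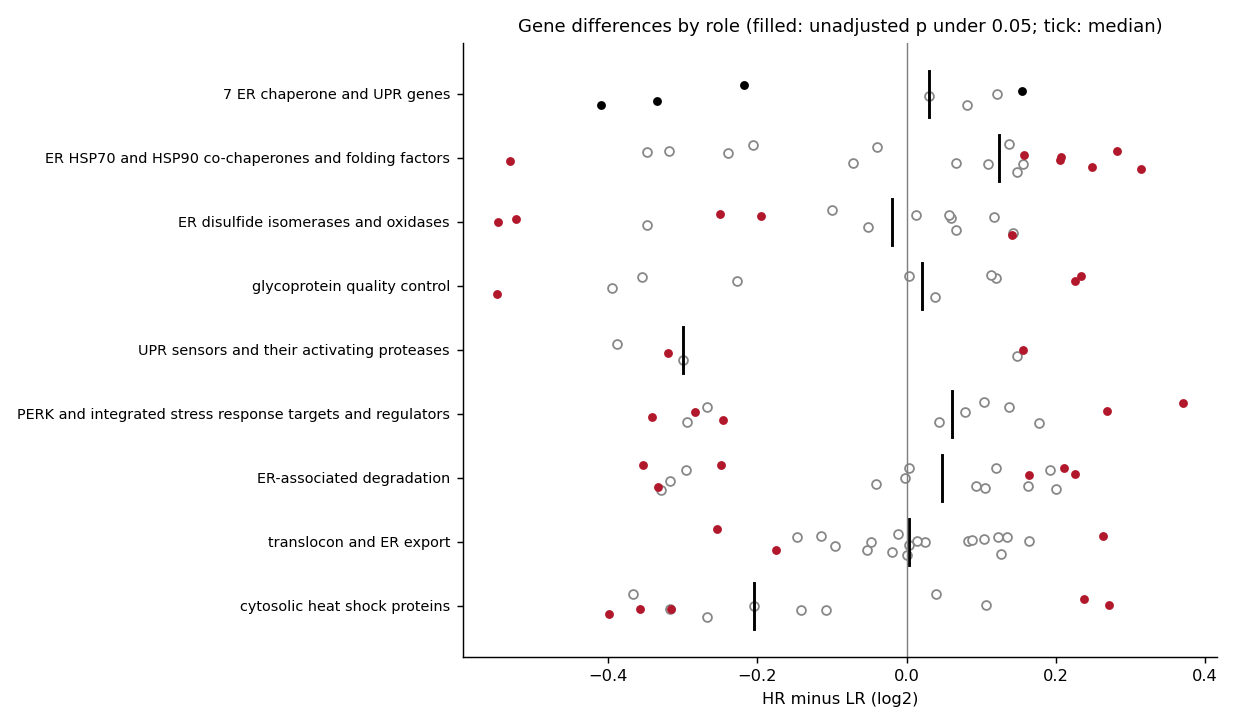
Difference between HR and LR (horizontal axis, log2) for each tested gene, by list (vertical axis), with points filled where the unadjusted p was under 0.05 and a tick at the median of the list. Every ER list holds genes on both sides of 0, and list medians lie between -0.30 for the 5 sensors and proteases and 0.12 for the 18 co-chaperones and folding factors. These are values of the main fit. In the same order, the medians of those lists were -0.21 and 0.07 without LR replicate 3. With array background as a covariate they were 0.02 and 0.004.

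Several cell type marker sums were related to HSPA5 across the arrays, in both directions. The summed level of neuron markers (9 of 10 on the array, all 9 tested) ranged from 13.8 to 14.2 in HR and from 14.0 to 14.6 in LR and followed HSPA5 at r = 0.899, while that of astrocyte markers (6 of 6 tested) ranged from 13.3 to 13.8 in HR and from 13.6 to 14.6 in LR, with r = 0.942. LR replicate 3 was the highest array for both, at 14.6 each. Both sums also followed the array background, at r = -0.933 and -0.809. At an unadjusted p under 0.05, 6 of the 9 neuron markers were lower and 1 was higher in HR, and 3 of the 6 astrocyte markers were lower and 1 was higher. Among all tested genes 15.4% were lower and 14.2% were higher at that level. Oligodendrocyte markers (5 tested) ranged from 13.6 to 14.0 in HR and from 13.5 to 14.1 in LR, with r = -0.358 to HSPA5, and microglia markers (5 tested) from 10.9 to 11.5 in HR and from 10.9 to 11.4 in LR, with r = 0.276. The sums of choroid plexus (4 of 5 tested, r = -0.429), endothelium (5 tested, r = -0.625), plasma and B cell (3 tested, r = -0.672) and blood markers (2 tested, r = -0.560) ran opposite to HSPA5. So did that of amygdala principal neurons (6 tested, r = -0.503), a second neuron list, whose mean was 12.3 in HR and 12.1 in LR and which had 2 genes higher and 0 lower in HR at an unadjusted p under 0.05 in limma. LR replicate 3, the highest array for HSPA5, was the lowest array for endothelium (9.62), blood (7.81) and amygdala principal neurons (11.8). No r of a marker sum was computed without that array. The part of cell composition in the HSPA5, DNAJB9 and PDIA3 differences was not tested.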

How the data were processed

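Amplified cDNA from 20 amygdalae was fragmented, labeled with biotin and hybridized to Snowball arrays. The authors processed scans with GCOS 1.1.1, normalized by the robust multichip average, and deposited log2 values, and the detection filter of the methods was not applied here. After removal of 123 controls, the 23860 probe sets whose mean reached the median of all probe set means (5.18) were tested. Groups came from the labels. The contrast HR minus LR was fitted in limma 3.58.1 under R 4.3.3 without covariates, with 2-sided moderated tests and Benjamini-Hochberg adjustment over all tested probe sets. The brightest tested probe set stood for a gene (10255 genes, microRNA precursors left out). Correlations used 100000 permutations (numpy 2.4.6). The limma procedure was tested on simulated data.

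Genes and lists were chosen with earlier results of these data known. Named were all 7 genes, in each other ER list up to 2 genes of smallest unadjusted p per direction, and the 3 genes of highest r with each of the 7. Cell type markers were described by list. ATF6, ASNS, ATF3, PPP1R15A, the cytosolic heat shock genes and the ER genes ranked by r were named after their values were seen. Platform symbols can be old. The planned description of promoter motifs and protein ends was not run, and no coordinates are given because the array annotation names no build. Other filters, normalizations, variance models, array weights, covariates, probe set rules and left-out arrays were tried. Precision is set by the number of arrays, which carry no read depth.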

Additional observations from a re-analysis of the deposited data

Results flagged for a closer look

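Of 74 groups of 10 values examined, 15 held an array that stood apart from the rest of its group, where about 4 are expected by chance (1 in 20), and 11 of the 15 concerned LR replicate 3. Among the ER chaperone and unfolded protein response genes, LR replicate 3 was far below the other LR arrays for PDIA4 (7.78, nearest 8.10) and ATF4 (8.85, nearest 9.07), and HR replicate 6 was far above the other HR arrays for the first DDIT3 probe set (8.41, nearest 8.13). The array background of LR replicate 3 (3.71) was also apart from the nearest LR array (3.99).

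Among the other ER genes, LR replicate 3 was apart on the high side for SEC63 (9.26, nearest 7.97) and CEBPG (8.01, nearest 7.54). It was apart on the low side for HYOU1 (9.03), TXNDC11 (7.10), MBTPS1 (8.02), AUP1 (8.69), SSR4 (7.43) and SEC61A1 (7.43). In HR, replicate 6 was apart for HYOU1 (9.95), replicate 1 for CEBPG (7.45) and replicate 10 for SPCS3 (6.69).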

How the results depend on the processing

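No adjusted p under 0.05 was found for the 7 genes under any of 31 other settings (217 differences), and 7 of the 217 changed direction. ATF4 came to -0.0198 with array weights, -0.0186 with array background, -0.0573 with the first component, -0.0535 without the 4 arrays of lowest correlation, -0.0047 without HR replicate 6 and -0.00059 without LR replicate 3, and HSPA5 to 0.00038 with the first component. The 3 lower probe sets (unadjusted p under 0.05) and the 1 higher each became 0 with array background, the first component or animal number as a covariate and without the 4 arrays. With animal number the differences were -0.20 ± 0.21 for HSPA5, -0.22 ± 0.13 for DNAJB9, -0.20 ± 0.10 for PDIA3 and 0.15 ± 0.09 for PDIA4 (SE). For PDIA3 and PDIA4 the estimate moved little and the SE grew. The groups overlapped little in animal number, so this fit can hardly tell the 2 apart. Leaving out 1 array gave 2 to 3 lower (2 without HR replicate 4, LR replicate 2 or LR replicate 3) and 0 to 1 higher (0 without HR replicates 2, 6 or 8 or LR replicates 3 or 6). Over all probe sets, the 2 adjusted calls became 1 without the filter, 1 with the stricter filter, 5 with array weights, 1 with array background, 0 with animal number, 1 without the 4 arrays and 0 to 7 without 1 array. The 6283 unadjusted calls became 3757 (array weights), 1018 (array background), 1107 (first component), 932 (animal number), 1378 (without the 4 arrays) and 4320 to 7812 (without 1 array). Other ER genes, 15 lower and 16 higher, became 4 and 13 with array weights, 1 and 4 with array background, 2 and 2 with the first component, 0 and 2 with animal number, and 3 and 5 without the 4 arrays. Without 1 array they were 8 to 24 lower (8 without HR replicate 4, LR replicate 2 or LR replicate 3, 9 without HR replicate 10, 24 without LR replicate 9) and 8 to 21 higher (8 without HR replicate 6, 10 without LR replicate 3). Relations to array background below an adjusted p of 0.05 numbered 5, and 3 without the 2 farthest arrays, 3 within HR and 2 within LR. The cause of these changes was not tested. Without 1 array the differences ranged from -0.47 to -0.30 for HSPA5, from -0.25 to -0.19 for PDIA3, from 0.11 to 0.18 for PDIA4, from -0.37 to -0.28 for DNAJB9, from 0.04 to 0.10 for XBP1, from -0.0047 to 0.0522 for ATF4 and from 0.08 to 0.14 for DDIT3. No paired analysis was possible because the labels give no replicate numbers that join HR and LR animals.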
